A study of Arabidopsis thaliana with 6 samples.

Results

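Small RNAs bound to ARGONAUTE1 (AGO1) were examined at 10 Arabidopsis thaliana genes of glucosinolate synthesis, out of 32420 loci in the deposited table. The genes were CYP79B2, CYP79B3 and CYP83B1 of the indole branch, SUR1 and UGT74B1, which serve both branches, and CYP83A1, CYP79F1, CYP79F2, MAM1 and BCAT4 of the aliphatic branch. They were chosen by locus name as a list, with their values in all 3 genotypes of these same data already known. Their differences between genotypes are therefore given as a description, with no test of their own.

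The series held 6 libraries, 2 biological replicates for each of 3 genotypes, made by AGO1 immunoprecipitation from aerial parts of 20-day-old plants (6 days on medium, then 14 on soil, untreated). The 3 genotypes were Col-0 as the wild type, a double mutant carrying ein5-1 and dcl4-2 (written ein5 dcl4), and a triple mutant carrying dcl2-1 as well (written ein5 dcl4 dcl2), so that both mutants shared the losses of EIN5 and DCL4 and only the triple mutant also lacked DCL2. EIN5 is the exonuclease that destroys decapped mRNA in the cytoplasm, while DCL4 and DCL2 are Dicer-like enzymes that process double-stranded RNA into siRNAs. A small RNA that was more abundant and one that was loaded onto AGO1 more often cannot be told apart.

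Glucosinolates are sulfur-rich defence compounds of Arabidopsis and its relatives, made from tryptophan in the indole branch and from chain-elongated methionine in the aliphatic branch. A CYP79 enzyme turns the amino acid into an aldoxime, a CYP83 enzyme oxidises the aldoxime, the lyase SUR1 and the glucosyltransferase UGT74B1 follow, and a sulfotransferase completes the core. In plants lacking normal mRNA decay, transcripts can be copied into double-stranded RNA and cut into siRNAs, and the values below count small RNA reads at a gene, not its mRNA.

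The authors deposited 1 value per locus and genotype, and the whole-number reads of both libraries behind each value were recovered from it, with 836879 to 1292727 reads per library. The libraries are called a and b because they could not be matched to replicate numbers. A read was worth 0.185 and 0.257 deposited units in the wild-type libraries, 1.92 and 2.79 in ein5 dcl4, and 1.71 and 1.9 in the triple mutant, so an equal number of reads gave a higher value in both mutants. The makeup of the pool moved with genotype. Reads at miRNA loci made up 65.5% and 68.2% of the wild-type libraries, 3.69% and 4.80% of ein5 dcl4 and 96.4% and 96.0% of ein5 dcl4 dcl2, and reads at protein-coding genes 15.9% and 14.6%, 95.1% and 94.0%, and 1.35% and 1.54%. At the mutated loci EIN5 held 26 and 5 reads in Col-0 and at most 1 in any mutant library, DCL4 held 0 and 4 reads in the wild type, 4 and 8 in ein5 dcl4 and 4 and 2 in the triple mutant, and DCL2 held at most 2 anywhere. These were too few reads to check the genotypes.

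CYP79B2 and CYP79B3 encode the cytochrome P450 enzymes that turn tryptophan into indole-3-acetaldoxime, the entry to indole glucosinolates. CYP79B2 (AT4G39950) lies at chr4:18525042-18527602 on the plus strand and CYP79B3 (AT2G22330) at chr2:9488413-9491404 on the plus strand (TAIR10.1, RefSeq annotation), with 3 and 2 exons, 2137 and 2241 exonic bases and no overlapping gene. Since the pair might share reads, a stretch of their coding sequences that holds their longest identical run is shown, 5′ to 3′, with the bases that differ between them in capitals. The stretches lie at chr4:18525679-18525778 and chr2:9488975-9489074, each within 1 exon, and 14 of their 100 bases differ.
CYP79B2: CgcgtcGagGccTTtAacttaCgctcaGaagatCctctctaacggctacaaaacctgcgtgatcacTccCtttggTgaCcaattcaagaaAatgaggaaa
CYP79B3: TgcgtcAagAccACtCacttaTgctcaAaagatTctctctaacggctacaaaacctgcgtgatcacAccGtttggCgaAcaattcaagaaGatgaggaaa
The identical run between them is 32 bases long.
Shared run: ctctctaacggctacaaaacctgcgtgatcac
Over the whole coding sequence the genes were 80.9% identical, and 28 of the 2117 different 21-base words in the exons of CYP79B2 (1.32%) also occurred in CYP79B3. How reads that match several loci were assigned is not given in the sources used here.

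CYP79B2 held 1 read in each Col-0 library, 12440 and 9451 in the ein5 dcl4 libraries and 5 and 4 in the triple mutant. Both ein5 dcl4 libraries were far above all 4 others, and the triple mutant's libraries lay above those of Col-0 without overlap in deposited units. Its mean value was 25090 ± 1791 units (SD, n = 2) in ein5 dcl4, 0.221 ± 0.0505 in Col-0 and 8.07 ± 0.666 in the triple mutant. On the log2(value + 1) scale the difference between ein5 dcl4 and Col-0 was 14.33 ± 0.23 (SE), the largest of the 10 genes, and the difference between ein5 dcl4 dcl2 and ein5 dcl4 was -11.43 ± 0.23. With 2 Col-0 reads in all, the ratio of ein5 dcl4 to Col-0 was 113586, with an exact (Clopper-Pearson) 95% interval for counting error alone of 31440 to 937978. In a whole aerial part, fewer cells with a small RNA and less of it per cell cannot be told apart. The triple mutant kept 0.0322% of the ein5 dcl4 value, and the ratio of ein5 dcl4 to it was 3109 (1637 to 6799). The authors' deposited table gives log2 fold changes of 16.83 and 11.60 for ein5 dcl4 over Col-0 and over ein5 dcl4 dcl2.

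CYP79B3 held 5 reads in each Col-0 library, 7337 and 5605 in ein5 dcl4 and 7 and 2 in the triple mutant. As at CYP79B2, the ein5 dcl4 libraries stood apart from all the others. The mean value was 14841 ± 1117 units in ein5 dcl4 against 1.10 ± 0.253 in Col-0 and 7.88 ± 5.77 in the triple mutant, and the log2 differences were 12.79 ± 0.51 and -10.88 ± 0.51. The ratio of ein5 dcl4 to Col-0 was 13437 (7304 to 28028), and 0.0531% of the ein5 dcl4 value was left in the triple mutant. Reads at CYP79B2 outnumbered those at CYP79B3 by 1.70 and 1.69 times in the ein5 dcl4 libraries, where the pair made up 62.4% and 62.3% (CYP79B2) and 36.8% and 36.9% (CYP79B3) of the reads of all 10 genes. In Col-0 the order was the other way round, at 0.2 in both libraries, which rests on 1 read against 5. Per kb of exon, CYP79B2 reached 11741 ± 838 units in ein5 dcl4, rank 10 among 26712 protein-coding genes, and CYP79B3 6623 ± 499, rank 20, whereas their ranks in Col-0 were 6359 and 2015.

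**Figure D1:**
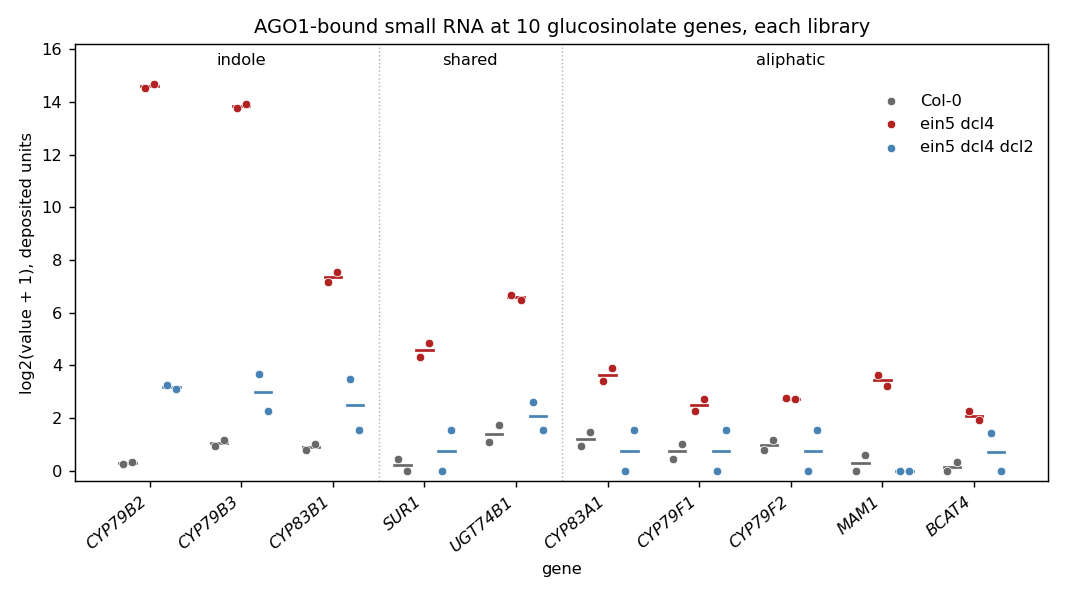
Small RNA values on the log2(value + 1) scale in deposited units (vertical axis) at each of the 10 genes (horizontal axis), with 1 point per library, a bar at the mean of 2 libraries and colours for genotype. CYP79B2 and CYP79B3 stand highest in ein5 dcl4, at means of 25090 and 14841 units, and the 5 aliphatic genes stay at means of 11.8 units or less in every genotype.

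The next enzyme of the indole branch followed at a much lower level. CYP83B1 (AT4G31500, chr4:15273410-15275404, minus strand), the cytochrome P450 that oxidises indole-3-acetaldoxime, held 4 and 4 reads in the wild type, 74 and 67 in ein5 dcl4 and 6 and 1 in the triple mutant. Again only the ein5 dcl4 libraries were high. Its mean value in ein5 dcl4 was 164 ± 31.9 units, the log2 differences were 6.45 ± 0.69 and -4.84 ± 0.69, and the ratio to Col-0 was 186 (91.8 to 439). Per kb of exon it reached 86.5 ± 16.8 units, rank 181, and 3.70% of the ein5 dcl4 value was left in the triple mutant.

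Of the genes used by both branches, SUR1 (AT2G20610, chr2:8877887-8880440, minus strand), the C-S lyase, held 2 and 0 reads in the wild type, 10 and 10 in ein5 dcl4 and 0 and 1 in the triple mutant. UGT74B1 (AT1G24100, chr1:8525334-8527087, minus strand), which adds the glucose, held 6 and 9, 53 and 32, and 3 and 1. At both genes the ein5 dcl4 libraries lay above all others. The log2 difference between ein5 dcl4 and Col-0 was 4.37 ± 0.61 at SUR1 and 5.19 ± 0.49 at UGT74B1, and that between ein5 dcl4 dcl2 and ein5 dcl4 was -3.82 and -4.51. Per kb they reached 12.6 ± 3.30 and 57.0 ± 5.18 units in ein5 dcl4, at ranks 840 and 242.

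The aliphatic genes held few reads in every genotype. CYP83A1 (AT4G13770, chr4:7990429-7992429, minus strand), the aliphatic counterpart of CYP83B1, held 5 and 7 reads in the wild type, 5 and 5 in ein5 dcl4 and 0 and 1 in the triple mutant. CYP79F1 (AT1G16410, chr1:5608682-5612064, plus strand) and CYP79F2 (AT1G16400, chr1:5605044-5607498, plus strand), the entry enzymes for chain-elongated methionine, held 2 and 4 and 4 and 5 reads in the wild type, 2 and 2 and 3 and 2 in ein5 dcl4, and 0 and 1 each in the triple mutant. These 3 genes thus had no more reads in ein5 dcl4 than in the wild type. They were higher there in deposited units, where the groups did not overlap. Trimmed-mean rescaling and equal miRNA totals also put them higher, but equal table totals did not. Of the side-chain genes, MAM1 (AT5G23010, chr5:7703041-7706973, plus strand), which elongates the methionine chain, held 0 and 2, 6 and 3, and 0 and 0 reads. BCAT4 (AT3G19710, chr3:6846969-6849582, minus strand), the aminotransferase that starts the elongation, held 0 and 1, 2 and 1, and 1 and 0, and it overlaps a gene on the opposite strand, whose reads cannot be told apart where counting ignores strand.

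Log2 differences between ein5 dcl4 and Col-0 on the deposited scale were 2.44 ± 0.62 at CYP83A1, 1.76 ± 0.62 at CYP79F1, 1.74 ± 0.59 at CYP79F2, 3.14 ± 0.40 at MAM1 and 1.93 ± 0.59 at BCAT4, while with equal table totals the first 3 turned to -0.16, -0.33 and -0.62. Ratios of ein5 dcl4 to Col-0 in deposited units were 8.64 (3.34 to 21.8), 6.74 (1.40 to 28.4), 5.59 (1.47 to 18.6), 38.7 (8.01 to 368) and 25.8 (2.07 to 1354), with counting intervals as above. In the triple mutant each gene kept 0 or 1 read in all, and at MAM1, with no read there, the ein5 dcl4 value was at least 1.83-fold higher than the floor of 3 reads per library. CYP79F1 and CYP79F2 are neighbours, 1183 bp apart, and their values are uncertain because the coding sequences are 91.8% identical. To show how alike they are, 100 bases of CYP79F1 (chr1:5609966-5610065) are given, which CYP79F2 holds without a difference at chr1:5606398-5606497.
CYP79F1 and CYP79F2: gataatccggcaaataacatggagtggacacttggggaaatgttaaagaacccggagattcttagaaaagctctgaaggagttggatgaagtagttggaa
A 21-base read from this stretch matches both genes equally, and 327 of 3267 such words in the exons of CYP79F1 were shared with CYP79F2.

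Per kb of exon, the order in ein5 dcl4 was CYP79B2, CYP79B3, CYP83B1, UGT74B1, SUR1, CYP83A1 (6.16 ± 1.62 units), MAM1 (4.84 ± 1.08), CYP79F2 (2.81 ± 0.0588), BCAT4 (2.28 ± 0.508) and CYP79F1 (1.44 ± 0.378). Between neighbours in this order only the libraries of CYP83A1 and MAM1 overlapped. The last 4 genes rested on 9 reads or fewer, so the order among them is not resolved. Per kb of coding sequence CYP79F2, BCAT4 and CYP79F1 lay closer together, at means of 3.51, 3.11 and 2.91 units. In Col-0 the 10 genes ran from 0.0884 units per kb at BCAT4 to 1.02 at UGT74B1, and in the triple mutant from 0 at MAM1 to 3.78 at CYP79B2, with at most 15 and 9 reads each.

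Set side by side within a library, which needs no scaling between genotypes, the branches lay furthest apart in ein5 dcl4. The 3 indole genes held 10 and 10 reads in the wild type, 19851 and 15123 in ein5 dcl4 and 18 and 7 in the triple mutant. The 5 aliphatic genes held 11 and 19, 18 and 13, and 1 and 3. The ratio of indole to aliphatic reads was 0.909 and 0.526 in the wild type, 1103 and 1163 in ein5 dcl4, and 18 and 2.33 in the triple mutant, where 1 and 3 aliphatic reads leave it imprecise. Without CYP79B2 and CYP79B3 the remaining indole gene, CYP83B1, still outnumbered the 5 aliphatic genes in ein5 dcl4, by 4.11 and 5.15 times, against 0.364 and 0.211 in Col-0 and 6 and 0.333 in the triple mutant.

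As a share of the library, indole genes went from 0.000933% ± 0.000158 (SD, n = 2) in Col-0 to 1.67% ± 0.192 in ein5 dcl4 and 0.00123% ± 0.000567 in the triple mutant. The Wilson 95% intervals of the single ein5 dcl4 libraries were 1.51% to 1.56% and 1.78% to 1.84%, so the libraries differed beyond counting error. Aliphatic genes held 0.00144% ± 0.000765, 0.00147% ± 0.000114 and 0.000223% ± 0.000187, and their Col-0 and ein5 dcl4 libraries overlapped. SUR1 and UGT74B1 together held 0.000799% ± 0.000200, 0.00495% ± 0.000103 and 0.000255% ± 2.46e-05, with ein5 dcl4 above the rest on this denominator. Protein-coding reads were themselves a far larger part of ein5 dcl4, and as a share of those alone the order changed. On that basis indole genes held 0.00617% ± 0.00141 in the wild type, 1.77% ± 0.217 in ein5 dcl4 and 0.0875% ± 0.0474 in the triple mutant. Aliphatic genes held 0.00966% ± 0.00561, 0.00156% ± 0.000133 and 0.0149% ± 0.0116, with both ein5 dcl4 libraries below all others. SUR1 and UGT74B1 held 0.00530% ± 0.00164, 0.00523% ± 0.000150 and 0.0178% ± 0.00334, where the first 2 genotypes overlapped and the triple mutant was higher, on 3 and 2 reads. Intervals and floors cover counting error only, since no molecular identifiers are recorded for the reads.

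**Figure D2:**
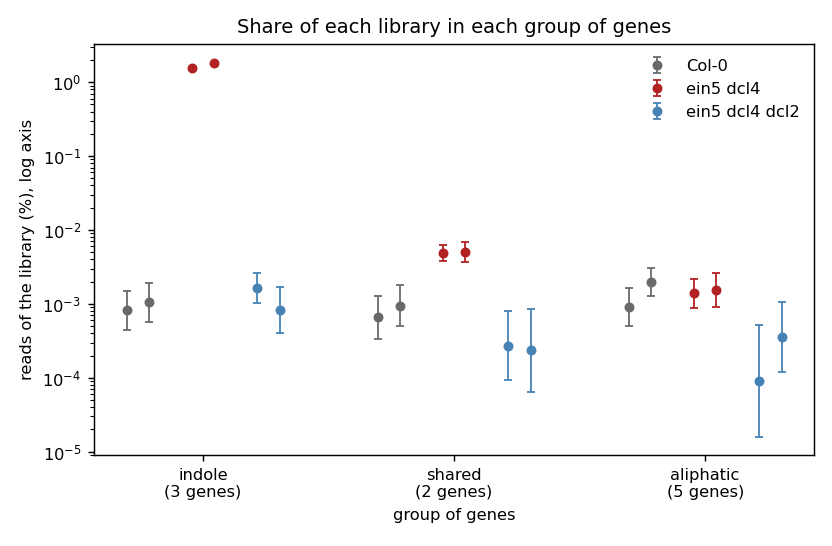
Percent of each library's reads (vertical log axis) at the indole, shared and aliphatic genes (horizontal axis), with 1 point per library, Wilson 95% intervals and colours for genotype. The indole points of ein5 dcl4 sit at 1.54% and 1.81%, while the aliphatic points of Col-0 and ein5 dcl4 overlap.

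Across all loci, limma was fitted to log2(value + 1) of the 6 libraries, and the 11376 loci whose mean value reached 1 unit were tested. All 10 genes passed that filter, the low ones mainly through their ein5 dcl4 values. Of them, 8 were called higher in the double mutant than in the wild type (3 of 3 indole, 2 of 2 shared and 3 of 5 aliphatic genes), beside 38.7% of all loci tested and 55.4% of the protein-coding genes tested. In the triple against the double mutant, 8 were called lower (3 indole, 2 shared, 3 aliphatic), beside 35.9% of all loci and 50.6% of protein-coding genes. Only CYP79B2 was called higher in the triple mutant than in the wild type, by 2.89 ± 0.23, beside 1.08% of all loci. Since the genes were chosen on these values, nothing is read from these counts. The uncalled genes were CYP79F1 and CYP79F2 in the first comparison and CYP79F1 and BCAT4 in the second.

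Counts of calls depended on single libraries. Since the members were chosen on these same libraries, a call that was kept adds no support. Without Col-0 library a, Col-0 library b or ein5 dcl4 library b the members called higher in ein5 dcl4 numbered 4, 5 and 5, and CYP79B2, CYP79B3, CYP83B1 and UGT74B1 were called each time. Without ein5 dcl4 library a or b the members called lower in the triple mutant numbered 5 and 4, and without either Col-0 library or either triple-mutant library the call of CYP79B2 against Col-0 was lost, as it was with equal miRNA totals (difference 0.79). Over all loci, the 4401 called higher in ein5 dcl4 became 879 and 767 without Col-0 library a and b, the 4087 called lower in the triple mutant became 2156 and 2137, and the 123 called higher in the triple mutant became 0 without either library of Col-0 or of the triple mutant.

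Medians put the groups of genes beside the whole table. The median log2 difference between ein5 dcl4 and Col-0 was 12.79 for the indole genes, 4.78 for the shared genes and 1.93 for the aliphatic genes, against 1.49 over all loci tested and 2.13 over protein-coding genes. For ein5 dcl4 dcl2 against ein5 dcl4 the medians were -10.88, -4.17 and -1.97, against -1.33 and -2.10. All-locus medians moved with the scaling of the libraries: for ein5 dcl4 against Col-0 it was 1.28 with a trimmed-mean rescaling, 1.54 with equal miRNA totals and -1.63 with equal table totals. Relative to that median CYP79B2 stood at 12.83 on the deposited scale and 14.03 with equal table totals, CYP83B1 at 4.96 and 5.50, and CYP79F2 at 0.25 and 1.01. The split of called loci moved too, from 4401 higher and 734 lower to 3996 and 1307 after trimmed-mean rescaling, or 1605 and 4738 with equal table totals. For ein5 dcl4 dcl2 against ein5 dcl4 it was 1288 higher and 4087 lower, against 1115 and 1910 with equal table totals and 161 and 7755 with equal miRNA totals. Against Col-0 the triple mutant had 123 higher and 34 lower, against 84 and 59 with trimmed-mean rescaling, then 62 and 3786 with equal table totals and 4 and 1831 with equal miRNA totals.

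**Figure D3:**
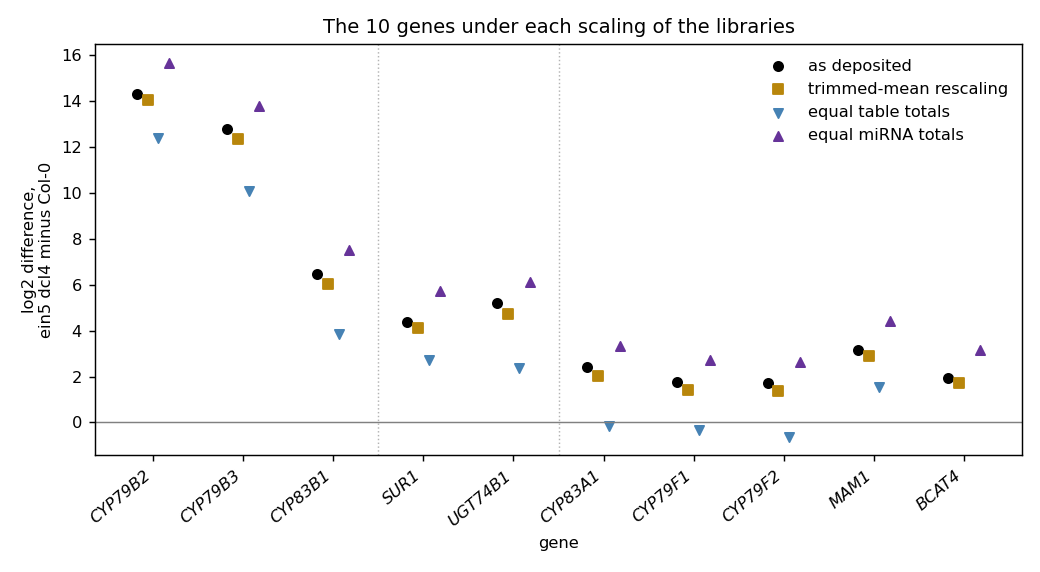
Log2 difference between ein5 dcl4 and Col-0 (vertical axis) at the 10 genes (horizontal axis) as deposited and under 3 other scalings of the libraries, 1 marker each. The indole and shared genes and MAM1 stay above 0 under all of them, CYP83A1, CYP79F1 and CYP79F2 fall to -0.16, -0.33 and -0.62 with equal table totals, and BCAT4 had too low a mean to be tested there.

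The genes beside the members held few small RNAs. The gene downstream of CYP79B2, AT4G39952, starts 34 bp away on the same strand and had 0 reads in all 6 libraries. Upstream, 3436 bp away, lies APK2, an APS kinase gene of sulfate donor supply, with 0 and 1 reads in the wild type, 9 and 4 in ein5 dcl4 and 1 and 1 in the triple mutant. At CYP79B3 the downstream neighbour AT2G22335, 282 bp away, had 0 and 1 reads in ein5 dcl4 and the upstream neighbour had 0. The neighbours of CYP83B1 had 5 and 2 and 1 and 7 reads in ein5 dcl4, and those of SUR1 and UGT74B1 had none. None of the neighbours named here held more than 9 reads in an ein5 dcl4 library.

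Among the regulators of the pathway, genes of the aliphatic branch held the most reads. MYB28, MYB29 and MYB76 encode the R2R3 MYB factors that activate aliphatic glucosinolate genes. MYB28 (AT5G61420) held 11 and 11 reads in the wild type, 11887 and 8358 in ein5 dcl4 and 3 and 3 in the triple mutant, and so was high only in ein5 dcl4. It rose by 12.72 ± 0.24 on the log2 scale (limma adjusted p 0.000104) to 23037 ± 385 units, which per kb was 11641 ± 194, at rank 12, and differed from the 11741 ± 838 of CYP79B2 by less than the spread between its libraries. Without DCL2 it fell by 11.81 (limma adjusted p 0.000156). MYB29 (AT5G07690) held 1 and 1, 1913 and 1390, and 2 and 1 reads. It rose by 11.59 ± 0.32 (limma adjusted p 0.000104) and fell by 10.04 in the triple mutant (0.000179), at 2178 ± 86.9 units per kb and rank 46 in ein5 dcl4.

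MYB76 (AT5G07700) held no read in the wild type, 57 and 33 in ein5 dcl4 and 0 and 1 in the triple mutant. It rose by 6.66 ± 0.57 on the fitted scale but passed the filter only through ein5 dcl4, so no p is given. MYB28 shared 0.607% of its 21-base exon words with MYB29 and 0.910% with MYB76, and MYB29 shared 1.75% with MYB76. Where a group held 0 reads, as here and at genes named below, the fitted difference depends on the pseudocount of 1 and is no bound. The regulators of the indole branch held fewer reads in ein5 dcl4 than MYB28 and MYB29 did. MYB51 held 1 and 0, 24 and 17, and 1 and 0 reads, MYB34 held 5 and 1, 9 and 11, and 3 and 1, and MYB122 held none in any library. MYC2, a jasmonate-response bHLH factor that acts with these MYB factors, held 11 and 10, 48 and 35, and 1 and 2 reads and rose by 4.86 ± 0.40 (limma adjusted p 0.00178), but it overlaps a gene on the opposite strand. All 7 tested regulators of 9 were called higher in ein5 dcl4, beside 38.7% of all loci and 55.4% of protein-coding genes, and lower in the triple mutant than in ein5 dcl4, beside 35.9% and 50.6%. Low genes of this and the other lists could pass the filter through their ein5 dcl4 values alone, so their counts of calls and their p-values carry that limit.

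**Figure D4:**
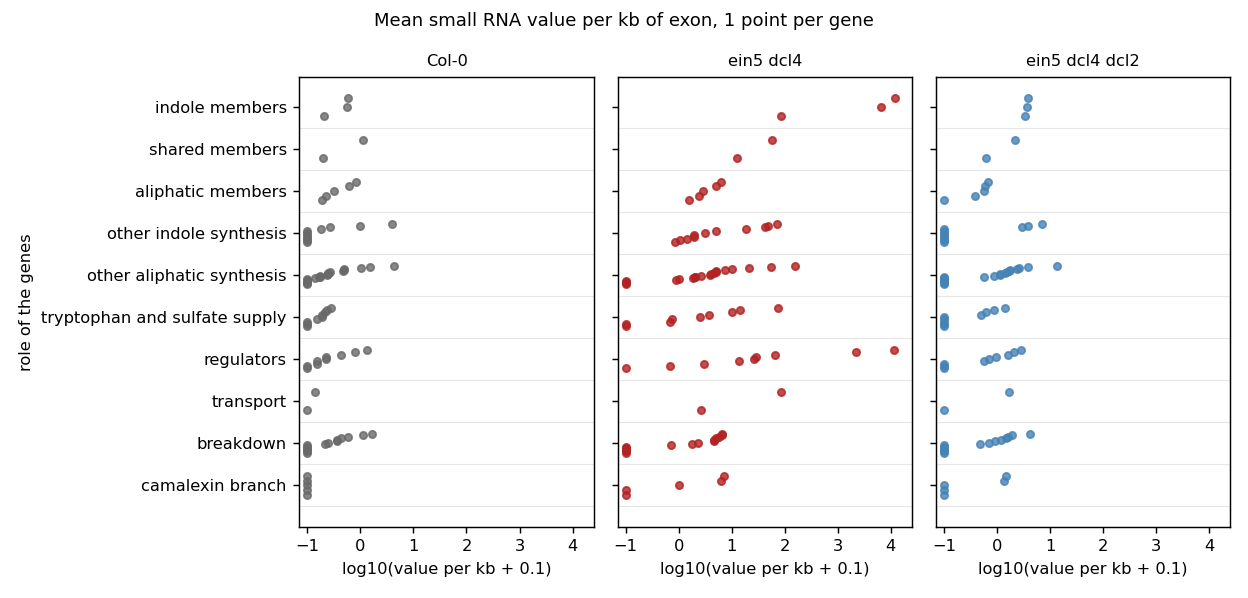
Mean small RNA value per kb of exon on the log10(value + 0.1) scale (horizontal axis) for each gene, grouped by role (vertical axis), with 1 panel per genotype. In ein5 dcl4 the 4 highest points are CYP79B2, MYB28, CYP79B3 and MYB29, at 11741, 11641, 6623 and 2178 units per kb.

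The other pathway genes were taken from lists of known members by role, 70 in all, of which 49 were tested. In ein5 dcl4 against Col-0, limma called 36 of the 49 higher, beside 38.7% of all loci and 55.4% of protein-coding genes, and 1 lower, with a median log2 difference of 2.77, and 17 of the 36 rested on fewer than 10 reads in ein5 dcl4, as did 2768 of the 4401 loci called higher in all. In the triple mutant against ein5 dcl4, 30 were called lower, beside 35.9% and 50.6%, and 2 higher, with a median of -2.43. Without Col-0 library a or b the first count fell to 14 and 13, and the second, over both directions, went from 32 to 20 without either Col-0 library and to 21 without ein5 dcl4 library a. In ein5 dcl4 dcl2 against Col-0 limma called 0 of 49 at the adjusted threshold, 11 at an unadjusted p under 0.05, all higher, while voom on the recovered reads called 29.

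In the rest of aliphatic synthesis, 10 of 15 tested genes were called higher in ein5 dcl4. Over all loci 38.7% were called higher, and 55.4% of protein-coding genes. In the triple mutant 5 of the 15 were called lower again, beside 35.9% and 50.6%. Of the genes called higher, MAM3, IPMI2 and FMO GS-OX3 passed the filter only through ein5 dcl4. SOT17 was called higher in deposited units with 13 and 7 reads in Col-0 against 7 and 6 in ein5 dcl4. Nothing is therefore read from these counts. GSL-OH, which hydroxylates the side chain, held 0 and 0, 113 and 105, and 3 and 0 reads and rose by 7.98 ± 0.88 (limma adjusted p 0.00359). With no read in Col-0, the size depended on the pseudocount, at 11.30 with 0.1 and 5.68 with 5. GSL-OH also reached the filter mainly through ein5 dcl4, which limits its p-values. Its fall of 6.67 in the triple mutant (limma adjusted p 0.00472) missed the threshold without ein5 dcl4 library b, at 0.0535, with a range of 3.96e-05 to 0.0535 over the alternatives. GSTU20, a glutathione transferase gene, held 3 and 6, 29 and 26, and 2 and 1 reads and rose by 5.02 ± 0.43 (limma adjusted p 0.00207). SOT18, a sulfotransferase gene of the last core step, overlaps a gene on the same strand. It had 33 and 22 reads in the wild type, 20 and 7 in ein5 dcl4 and 8 and 12 in the triple mutant. Its difference of 2.05 ± 0.46 (limma adjusted p 0.0197) turned to -1.06 with equal table totals. The call was lost with trimmed-mean rescaling and depended on single libraries of Col-0 and ein5 dcl4.

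In the rest of indole synthesis, 5 of 7 tested genes were called higher, beside 38.7% of all loci and 55.4% of protein-coding genes. Without DCL2, 5 were called lower again, beside 35.9% and 50.6%. GGP3, CYP81F2 and CYP81F4, called in both comparisons, passed the filter only through ein5 dcl4, so nothing is read from these counts. CYP81F4, which modifies the indole ring, held 57 and 49 reads in ein5 dcl4 and none elsewhere, and rose by 6.94 ± 0.33. It passed the filter only through ein5 dcl4, so no p is given, and it overlaps a gene on the opposite strand. Its relatives CYP81F1, CYP81F2 and CYP81F3 held at most 2 reads in any library. The calls of CYP81F2 rested on 2 and 1 reads in ein5 dcl4 and none elsewhere. GSTF9 held 9 and 2, 32 and 16, and 2 and 3 reads and rose by 4.73 ± 0.46 (limma adjusted p 0.00261), while the sulfotransferase gene SOT16 had 26 and 21, 24 and 31, and 11 and 0 reads and was not called.

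In ein5 dcl4, genes of precursor supply and of transport held fewer reads than MYB28 and MYB29. Of tryptophan supply, 3 of 4 tested genes were called higher, beside 38.7% of all loci and 55.4% of protein-coding genes. In the triple mutant 3 were called lower, beside 35.9% and 50.6%. All 3, ASA1, IGPS and TSB1, passed the filter only through ein5 dcl4, so nothing is read from these counts. ASA1 and IGPS held 4 and 1 reads each in ein5 dcl4. TSB1, the tryptophan synthase beta subunit, held 1 and 0 reads in the wild type, 65 and 50 in ein5 dcl4 and none in the triple mutant. It rose by 6.93 ± 0.32 but passed the filter only through ein5 dcl4, so no p is given. Beside the same shares, both APS kinase genes APK1 and APK2 were called higher and then lower, as were both transporter genes. APK1, APK2 and the transporter gene GTR1 also passed the filter only through ein5 dcl4, so nothing is read from their calls. The other transporter gene, GTR2, held 1 and 0, 117 and 64, and 0 and 4 reads and rose by 7.53 ± 1.02 (limma adjusted p 0.00563). That call ended without either Col-0 or either ein5 dcl4 library, at adjusted p from 3.45e-07 to 0.0649 over the alternatives. Its fall of 6.10 (limma adjusted p 0.00859) ended without ein5 dcl4 library a or b, at 0.000118 to 0.0803. GTR2 also overlaps a neighbouring gene, and GTR1 held 3 and 2 reads in ein5 dcl4 and none elsewhere.

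Among 10 tested genes of glucosinolate breakdown, 5 were called higher in ein5 dcl4, beside 38.7% of all loci and 55.4% of protein-coding genes. Of these, PYK10, NIT2 and NSP5 passed the filter only through ein5 dcl4, so nothing is read from the count. In the same comparison 1 was called lower, as were 734 of all 11376 loci. In the triple mutant 5 were called lower, beside 35.9% and 50.6%, and 2 higher, beside 1288 of 11376 loci. The exceptions were singled out after their values were seen. ESP, which encodes the epithiospecifier protein, had 8 and 9 reads in the wild type, 0 and 0 in ein5 dcl4 and 1 and 2 in the triple mutant, and the myrosinase gene TGG2 had 1 and 1, 0 and 0, and 3 and 1. A count of 0 allows up to 3 reads at this depth, or 5.75 and 8.37 units in the ein5 dcl4 libraries, which lies above both genes' Col-0 values. No pathway gene was called lower in ein5 dcl4 without any 1 of the Col-0 libraries, the ein5 dcl4 libraries or triple-mutant library b. Of the camalexin branch, which also starts from indole-3-acetaldoxime, 2 of 5 genes were tested, PAD3 with 6 and 5 reads and GSTU13 with 7 and 1 in ein5 dcl4. Neither had a read in the wild type and the triple mutant held at most 1 per library, so both passed the filter only through the double mutant, and no count of calls is given. The other CYP79 genes had no reads in ein5 dcl4: CYP79A2, the entry gene for benzylglucosinolate, held 4 and 5, 0 and 0, and 1 and 2 reads, and CYP79C1 and CYP79C2 at most 2.

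**Figure D5:**
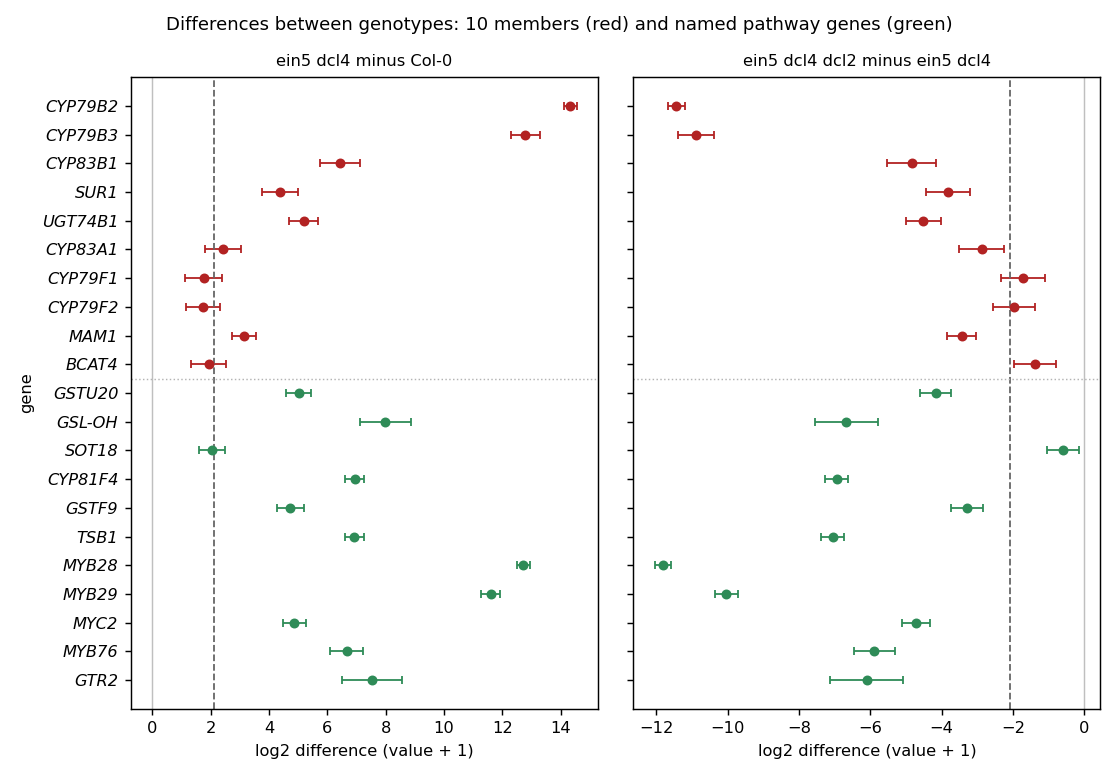
Log2 differences on the log2(value + 1) scale (horizontal axes, bars are SE) between ein5 dcl4 and Col-0 (left) and between ein5 dcl4 dcl2 and ein5 dcl4 (right), for the 10 genes in red and the named pathway genes in green. The dashed lines mark the medians of tested protein-coding genes, 2.13 and -2.10; both panels use the same ein5 dcl4 libraries, and SOT18, CYP83A1, CYP79F1 and CYP79F2 change direction on the left with equal table totals.

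Loci most like CYP79B2 were ranked by Euclidean distance on log2(value + 1) over the 6 libraries. BRI1, the brassinosteroid receptor gene, was nearest at 1.30, followed by the acyltransferase gene DGAT3 at 1.42, the HSP90-family gene HSP81-2 at 1.56, CYP79B3 at 1.81 and HSP90.1 at 2.06. BRI1 held 1 and 4 reads in the wild type, 9866 and 6105 in ein5 dcl4 and 5 and 2 in the triple mutant. CYP79B3 was thus the only other glucosinolate gene among the 5 nearest.

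Exonic GC content and exon number, which the list did not use, were also compared between the branches. Exonic GC content was 43.4% to 44.8% in the indole genes and 40.9% to 43.1% in the aliphatic genes. Exon numbers were 2 or 3 in all the cytochrome P450 genes, 7 in SUR1, 10 in MAM1 and 9 in BCAT4. The P450 pair CYP83A1 and CYP83B1, 67.1% identical in coding sequence with no shared 21-base word, had 12 and 8 reads in Col-0 but 10 and 141 in ein5 dcl4. Likewise, CYP79F1 and CYP79F2, of the same family as CYP79B2 and with no such word in common with it, held 4 and 5 reads in ein5 dcl4.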

How the data were processed

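AGO1-bound small RNAs were sequenced from 3 genotypes with 2 libraries each. The authors deposited 1 table with 1 signal value per locus and genotype, headed TPM per the file headers although its columns do not sum to the total that TPM implies, so the unit is called a deposited unit here. The authors' log2 fold changes stand beside their p-value and adjusted p-value columns in the same table, of which only log2 fold changes are quoted. The submitters' processing notes name TAIR10, DESeq2, SAMtools 1.9 and Bowtie 1.2.2 with no role for any, and per the labels only read 1 was analysed. Read lengths, strand and the handling of multiply mapped reads were not given in the sources used here.

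Each deposited value above 0 was the mean of 2 libraries and could be split into whole reads within a relative tolerance of 1e-14. This recovered the reads of both libraries. Within each genotype the libraries differed by more than sampling noise (chi-square per degree of freedom 3.18 to 5.82). Where the labels say no more than that replicates are biological, p-values measure the spread between these libraries. The test was limma 3.58.1 (R 4.3.3) with a trended prior, run on log2(value + 1) of all libraries together (3 residual and 2.16 prior degrees of freedom), over the 11376 loci whose mean reached 1 unit. A locus was called at an adjusted p (Benjamini-Hochberg, two-sided, over all tested loci) under 0.05, and fold changes of low loci are understated on this scale. The steps were also run on simulated reads with a common base level in all genotypes. That simulation lacks the shift in makeup between genotypes seen here, so it does not check calls under that shift.

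Gene models and sequences came from the TAIR10.1 RefSeq reference, to which 31722 loci of the table matched by name. Levels per kb used exonic length. Shared reads were judged by exact 21-base words on either gene's exons. The 10 genes and the lists of other pathway genes were chosen with earlier results of these data known. Named pathway genes were, per list, up to 4 called loci with the smallest adjusted p and a mean of at least 10 units, besides the 10 genes, their neighbours and relatives, the 5 most like loci and the mutated loci. Other genes named to fill out a list were chosen after their values were seen. Alternatives were pseudocounts of 0.1 and 5, no filter, a filter at a mean of 10, 3 rescalings (trimmed mean, equal table totals, equal miRNA totals), voom on recovered reads, and leaving out each library.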

Additional observations from a re-analysis of the deposited data

How the results depend on the processing

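The direction and call of CYP79B2, CYP79B3 and UGT74B1 in ein5 dcl4 against Col-0 and in ein5 dcl4 dcl2 against ein5 dcl4 held under all 14 alternatives, as did those of MYB28 and MYB29. These genes were chosen with results of the same libraries known, so calls that held add no support. With equal table totals the ein5 dcl4 minus Col-0 difference turned to -0.16 at CYP83A1, -0.33 at CYP79F1, -0.62 at CYP79F2 and -1.06 at SOT18, since that scaling gives each read of both genotypes nearly equal weight.

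Counts are given in the order ein5 dcl4 minus Col-0, ein5 dcl4 dcl2 minus ein5 dcl4, and ein5 dcl4 dcl2 minus Col-0, over both directions. With a filter at a mean of 10, which tests 1852 loci, 952, 1046 and 392 loci, 12, 12 and 2 other pathway genes and 4, 4 and 2 members were called. With equal table totals, loci called numbered 3025 and 3848 in the last 2 comparisons, other pathway genes 22 (21 higher), 18 (all lower) and 5 (all lower), and members 5 in the first (all higher) and 4 in the last (1 higher and 3 lower, where the deposited scale calls 1 higher and 0 lower). Equal miRNA totals gave 1835 loci, 2 other pathway genes and 0 members in the last comparison, and voom gave 5078, 29 and 5. A pseudocount of 0.1 gave 252 loci and 1 other pathway gene in the last comparison and 5 members in the second, and no filter gave 92 loci in the last. The cause of these changes was not tested, apart from the fewer loci that the filter tests.

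Leaving out each library gave 801 to 5118, 2746 to 4530 and 0 to 138 loci, 13 to 39, 20 to 25 and 0 to 1 other pathway genes, and 4 to 10, 4 to 9 and 0 to 1 members. A library left alone in its genotype is assumed to vary like the others. As a share of protein-coding reads only, in the order wild type, double and triple mutant, indole genes held 0.00617%, 1.77% and 0.0875%, aliphatic genes 0.00966%, 0.00156% and 0.0149%, and shared genes 0.00530%, 0.00523% and 0.0178%, so on this denominator only the indole genes were higher in the double mutant than in the wild type. With SUR1 and UGT74B1 counted in, the indole share of Col-0 was 0.00173%. Of 586 single-gene alternatives, 517 kept direction and call, 52 lost the call, 13 gained it and 4 reversed.

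No paired analysis was possible because the table's columns carry no replicate number and the recovered libraries cannot be tied to one. Depth limits the aliphatic genes most, since 3 reads came to 5.12 to 8.37 units in the mutants. Reads that match several loci, strand and small RNA length could not be examined.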
